A study of Mus musculus with 12 samples.

Results

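The genes examined were *Socs1*, *Socs2*, *Socs3*, *Cish*, *Stat3*, *Il6st*, *Il6ra*, *Osmr* and *Lifr*, the core of gp130-STAT3 signaling and its feedback arm. They were found by matching the Ensembl identifiers of the count matrix to these 9 symbols, and all 9 were present among 56980 genes. Cytokines of the IL-6 family signal through gp130, the shared signal-transducing receptor encoded by *Il6st*, which pairs with a ligand-specific chain such as the IL-6 receptor (*Il6ra*), the oncostatin M receptor (*Osmr*) or the LIF receptor (*Lifr*). The engaged receptors activate JAK kinases, which phosphorylate the transcription factor STAT3, and STAT proteins in turn induce the SOCS and CIS (*Cish*) proteins, which bind receptors or JAKs and dampen the signal. In bone, osteoblast-lineage and stromal cells are known targets of this cytokine family.

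Bulk RNA-Seq was performed on W-20 cells, a murine bone marrow stromal cell (BMSC) line, in 12 libraries of 4 groups with 3 libraries each. WT cells and Y428F cells were each exposed for 2 hours to 50 nM parathyroid hormone (PTH) or to its vehicle, PBS. Y428F cells are a stable W-20 line carrying a Flag-tagged YAP with the Y428F substitution, phenylalanine in place of a tyrosine that the kinase Src can phosphorylate, and the study asked whether that tyrosine matters for the response to PTH. The lines of the study were made with Flag-YAP plasmids, and positive clones were selected with puromycin. The study's account of the sequenced cells mostly names them as a double mutant, with a serine-to-alanine substitution besides Y428F, whereas the library titles give Y428F alone, the name used here. The genotype label of the Y428F libraries reads WT, so the groups rest on their titles. WT libraries are labelled as plain W-20 cells, and no library of a line with introduced unmutated YAP was analysed here, so the mutation and other differences between the lines cannot be told apart.

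Library totals ranged from 17127897 to 19057319 counts. The 9 genes summed to between 113 counts (*Cish*, Y428F cells with PTH) and 24981 counts (*Il6st*, WT cells with PTH) over the 3 libraries of a group, so *Cish* had the widest counting error. The study speaks in general of independent experiments, but neither it nor the labels tie each library to a separate culture, and without that, p-values measure only the spread between these libraries, which may be technical. In bulk RNA, fewer cells of a kind and less RNA per cell cannot be told apart. Stromal markers were headed by *Col1a2* at 9995 CPM (counts scaled to the TMM-adjusted library size) and were abundant in every library. The 16 stromal and osteoblast-lineage markers summed to 22828 ± 1940 CPM (SD, n = 3) in WT cells with vehicle, 22419 ± 1592 with PTH, 14545 ± 587 in Y428F cells with vehicle and 12198 ± 1441 with PTH. *Thy1* was at 0 counts in all libraries, and *Bglap* and *Nt5e* summed to 2 and 5 counts over them. The osteoblast markers *Alpl* (0 to 7 counts per library) and *Sp7* (0 to 4 counts per library) were also near 0, and most of the sum came from *Col1a1* and *Col1a2*. Haematopoietic markers summed to at most 5.60 CPM in any library, with *Cd3e* at 0, and epithelial markers to at most 0.931 CPM.

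Expression per length set the order of the 9 genes. On the scale of CPM per kilobase of the canonical transcript, WT cells with vehicle had 51.9 ± 4.61 for *Il6st*, 24.2 ± 2.02 for *Stat3*, 16.6 ± 2.27 for *Socs3* and 12.2 ± 0.489 for *Socs2* (SD, n = 3). *Osmr* followed at 7.77 ± 0.133, then *Socs1* at 4.35 ± 0.408, *Il6ra* at 3.60 ± 0.612, *Lifr* at 1.99 ± 0.358 and *Cish* at 1.81 ± 0.245. Thus the shared receptor chain was the most abundant and each ligand-specific chain was lower, while *Socs1* and *Il6ra*, and *Lifr* and *Cish*, were neighbors that did not differ beyond their spread. *Il6st* ranked the highest, followed by *Stat3* and *Socs3*, and *Cish* the lowest in all 4 groups, although in Y428F cells the libraries of *Stat3* (17.5 ± 1.02 with vehicle) overlapped those of *Socs3* (16.9 ± 0.111). The place of *Socs2* depended on the length used. Divided by all its exon bases annotated in GENCODE vM39 (15258 in place of 2540 for the canonical transcript), *Socs2* in WT cells with vehicle was at 2.02 CPM per kilobase and rank 7 rather than rank 4. *Stat3* and *Socs3* then also changed places in 3 groups.

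**Figure D1:**
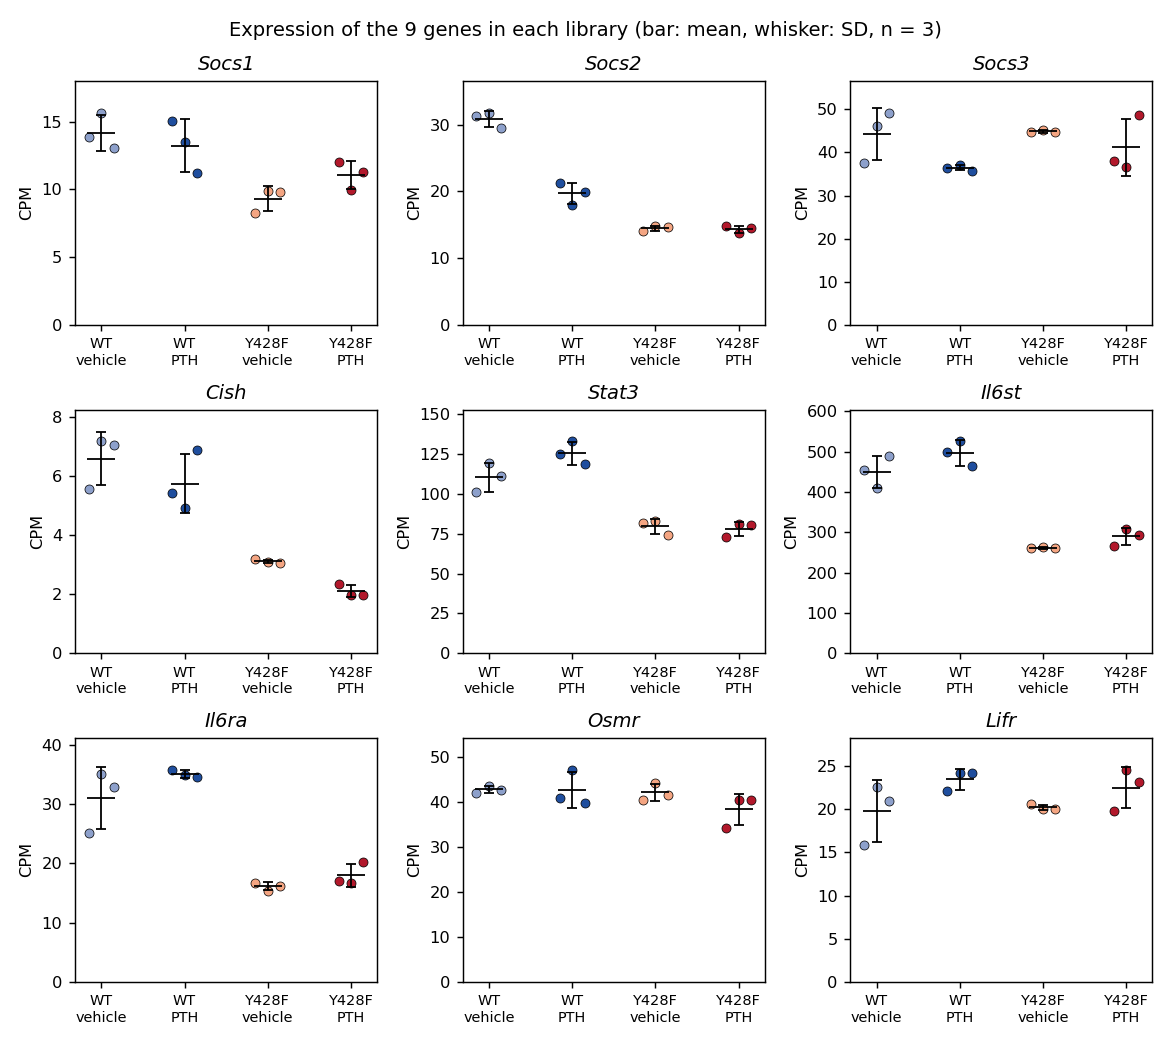
Expression of the 9 genes in CPM (y axis, from 0) for each of the 3 libraries (points) of the 4 groups, with the group mean (bar) and SD (whisker). *Socs2*, *Cish*, *Stat3*, *Il6st* and *Il6ra* lie lower in Y428F cells with either treatment, and *Socs2* in WT cells lies lower with PTH (18.0 to 21.2 CPM) than with vehicle (29.5 to 31.8 CPM).

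Several of these genes are textbook STAT targets, and the promoter windows of *Cish* and *Socs3* are shown because they were the only windows of the 9 genes that held the STAT motif TTCNNNGAA. RefSeq promoter windows of GRCm38.p6 (250 bases before to 50 after an annotated start) matched 8 of the 9 genes, with 2 windows for *Lifr*. *Socs2* was not matched. Motif matches are in capitals, and both windows read 5′ to 3′ along the gene. The *Cish* window is chr9:107296409-107296708 on the plus strand, and the *Socs3* window is chr11:117969317-117969616 on the minus strand.
Cish: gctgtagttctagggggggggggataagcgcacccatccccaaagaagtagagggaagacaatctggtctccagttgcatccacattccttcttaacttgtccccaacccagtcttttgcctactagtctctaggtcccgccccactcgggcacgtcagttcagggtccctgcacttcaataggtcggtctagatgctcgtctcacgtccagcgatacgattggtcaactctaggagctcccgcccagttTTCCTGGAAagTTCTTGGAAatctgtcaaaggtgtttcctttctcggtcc
Socs3: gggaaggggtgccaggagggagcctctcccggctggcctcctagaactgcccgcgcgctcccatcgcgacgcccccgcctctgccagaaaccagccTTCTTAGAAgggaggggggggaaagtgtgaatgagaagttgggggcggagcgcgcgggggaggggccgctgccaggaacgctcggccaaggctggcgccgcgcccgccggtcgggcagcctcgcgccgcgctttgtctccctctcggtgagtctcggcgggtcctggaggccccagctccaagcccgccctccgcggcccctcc
In *Cish*, TTCCTGGAA begins at the annotated start and TTCTTGGAA begins 11 bases after it, and in *Socs3*, TTCTTAGAA begins 154 bases before the start used for its window. The *Cish* window was set on the start of the RefSeq gene, whereas the *Socs3* window, like those of *Osmr* and *Lifr*, was set on a start further downstream and lies wholly inside the RefSeq gene. Searched on both strands, TTCNNNGAA is held by 8.30% of 32851 promoter windows. The same motif with 4 bases between TTC and GAA (6.95% of windows) and the full cAMP response element TGACGTCA (1.79%) had no match in the windows of the 9 genes. Its core TGACG, which lies within TGACGTCA, was in *Cish* and *Il6ra* (20.8% of windows), and the TEAD motif GGAATG in *Cish* and *Stat3* (14.7%). A match is only a description of these letters, and *Cish* and *Socs3* did not show the same pattern of expression, as given below.

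The first comparison asks what 2 hours of PTH did in WT cells. *Socs2*, an inhibitor best known for restraining growth hormone signaling, was the only one of the 9 genes that passed the test, and it fell to 0.639 of its vehicle level. *Socs3*, the main brake on gp130 signaling, and *Stat3* itself came close to the threshold, in opposite directions, and the receptor genes did not pass. The count of 1 among 9 genes is near the share over the transcriptome, where 13.4% of the 17691 genes tested passed in either direction, 7.42% as higher and 6.01% as lower.

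*Socs2* was at 31.4, 31.8 and 29.5 CPM in the WT libraries with vehicle and at 21.2, 18.0 and 19.9 CPM in those with PTH. Every library with PTH lay below every library with vehicle, a separation in this direction that 13.2% of genes tested showed. The log2 fold change was -0.65 ± 0.082 (SE; 95% interval -0.82 to -0.48; adjusted p = 1.48e-05 from the quasi-likelihood test of edgeR, adjusted by Benjamini-Hochberg over all genes tested, as for every adjusted p below). *Socs3* was at 37.6, 46.2 and 49.2 CPM with vehicle and 36.5, 37.1 and 35.8 CPM with PTH. The *Socs3* groups did not overlap, but their nearest libraries were almost level, and the log2 fold change of -0.28 ± 0.099 did not pass (adjusted p = 0.0683). *Stat3* was at 101, 119 and 111 CPM with vehicle and 125, 133 and 119 CPM with PTH. These groups overlapped, and the log2 fold change of 0.19 ± 0.068 did not pass either (adjusted p = 0.0815). Both calls depend on the settings: over the alternatives tried, the adjusted p ranged from 0.00815 to 0.298 for *Socs3* and from 0.0291 to 0.271 for *Stat3*, and without WT vehicle library 1 *Socs3* passed at -0.38.

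*Socs1* and *Cish* had log2 fold changes of -0.10 ± 0.12 and -0.19 ± 0.16 with PTH in WT cells, and their groups overlapped. The receptor genes had small positive or near-zero values, which were 0.14 ± 0.068 for *Il6st*, 0.18 ± 0.10 for *Il6ra*, 0.25 ± 0.11 for *Lifr* and -0.01 ± 0.079 for *Osmr*. None of the 4 passed, and their groups overlapped. WT vehicle library 1 held the lowest vehicle value of 6 of the 9 genes, among them *Lifr* at 15.8 CPM against 22.6 and 21.0. With that library left out, the *Lifr* log2 fold change was 0.12, and with vehicle library 2 left out it was 0.36 and passed (adjusted p = 0.0490, against 0.163 in all libraries and up to 0.490 over the alternatives).

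**Figure D2:**
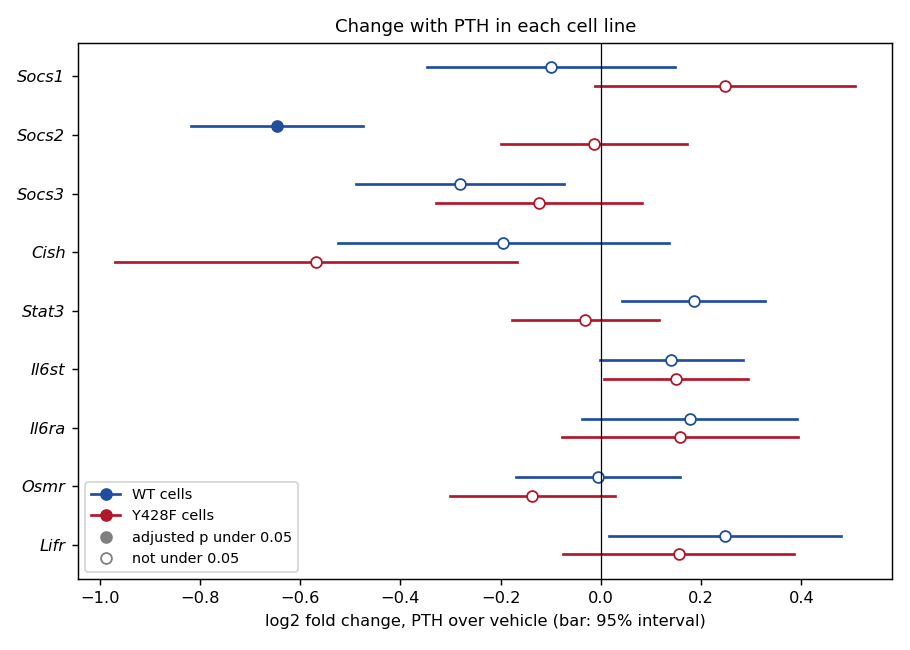
Log2 fold change of PTH over vehicle (x axis) for each of the 9 genes in both lines, with 95% intervals as bars and filled points where the adjusted p is under 0.05. Only *Socs2* in WT cells is filled, at -0.65, and its Y428F interval (-0.20 to 0.17) does not reach it.

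In Y428F cells, none of the 9 genes passed the test with PTH by edgeR or by DESeq2, against 12.4% of all genes tested (6.61% higher and 5.78% lower). In edgeR, 2 of the 9, *Cish* and *Il6st*, had an unadjusted p under 0.05, as did 4315 of the 17691 genes tested, a similar share. *Socs2* was at 14.1, 14.8 and 14.6 CPM with vehicle and 14.7, 13.8 and 14.5 CPM with PTH. These libraries overlapped almost fully, and the log2 fold change was -0.01 ± 0.089 (95% interval -0.20 to 0.17). *Cish*, whose product CIS is an early feedback inhibitor of STAT5-activating receptors, was at 3.18, 3.08 and 3.06 CPM with vehicle and 2.33, 1.96 and 1.98 CPM with PTH. Its groups did not overlap, as for 15.4% of genes tested in this direction, but each library held only 35 to 61 counts and the log2 fold change of -0.57 ± 0.19 did not pass (adjusted p = 0.0592). *Cish* passed with library totals in place of TMM scaling (-0.61, adjusted p = 0.0442) and with genes of at least 10 counts in every library (-0.57, adjusted p = 0.0426), within a range of 0.0426 to 0.162 over all alternatives. *Il6st* was at 259.8, 263 and 260.1 CPM with vehicle and 267, 308 and 294 CPM with PTH. The *Il6st* groups stood narrowly apart, higher with PTH as for 15.5% of genes tested in that direction, with a log2 fold change of 0.15 ± 0.069 (adjusted p = 0.180) that was close to the 0.14 of WT cells. *Socs1* had 0.25 ± 0.12 and *Osmr* -0.14 ± 0.079, both also without overlap and without passing, and *Socs3*, *Stat3*, *Il6ra* and *Lifr* overlapped between the groups.

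The response to PTH was then compared between the lines by testing the difference of the 2 log2 fold changes in the same fit. *Socs2* was the only one of the 9 genes to pass, where 0.413% of all genes tested passed in either direction and 0.170% did so with a higher value in Y428F cells. Its difference was 0.63 ± 0.12 (95% interval 0.38 to 0.89; adjusted p = 0.0210). In every Y428F library, with either treatment, *Socs2* lay below its level in the WT libraries with PTH. The size of the difference held between 0.58 and 0.70 when each library was left out in turn, but the call did not. Leaving out WT PTH library 2, any of the 3 Y428F vehicle libraries, or Y428F PTH library 1 or 3 gave an adjusted p between 0.0555 and 0.0787. Over all alternatives it ranged from 0.00274 to 0.0787.

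The difference in response did not pass for the other 8 genes, and their 95% intervals give the sizes that these libraries could not resolve. The difference was 0.35 for *Socs1* (95% interval -0.01 to 0.71), -0.22 for *Stat3* (-0.42 to -0.01; adjusted p = 0.669) and -0.37 for *Cish* (-0.89 to 0.15). For *Il6st* it was 0.01 (-0.19 to 0.21). For *Il6ra*, *Osmr*, *Lifr* and *Socs3* the differences were -0.02, -0.13, -0.09 and 0.16.

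More of these genes differed between the lines than with PTH. With vehicle, 6 of the 9 genes were lower in Y428F cells and none was higher, where 45.1% of all genes tested passed, 22.7% as lower and 22.4% as higher. The median log2 difference was -0.60 over the 9 genes and 0.01 over all genes tested. With PTH, 5 of the 9 were lower, against 45.7% of all genes passing, 22.8% as higher and 23.0% as lower, and the medians were -0.46 and 0.02. The libraries of the lines did not overlap for those 6 genes with vehicle (26.3% of all genes tested were apart in this direction and 27.5% in the other) and for those 5 with PTH (26.3% and 25.6%). The genes that passed with vehicle were the shared receptor *Il6st* and the ligand-binding chain *Il6ra*, the transcription factor *Stat3*, and the inhibitors *Socs1*, *Socs2* and *Cish*. *Osmr*, *Lifr* and *Socs3* did not pass in either state.

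Among the receptors, *Il6st* was at 453, 409 and 488 CPM in WT cells with vehicle against 259.8, 263 and 260.1 CPM in Y428F cells. With PTH it was at 499.96, 526 and 463 CPM against 267, 308 and 294 CPM. No Y428F library reached any WT library, and the log2 difference was -0.79 ± 0.069 with vehicle (adjusted p = 7.09e-09) and -0.78 ± 0.069 with PTH (adjusted p = 8.09e-09). *Il6ra* was at 25.1, 35.2 and 32.9 CPM in WT cells with vehicle and 16.7, 15.4 and 16.3 CPM in Y428F cells. With PTH it was at 35.8, 34.9 and 34.6 CPM and 17.0, 16.7 and 20.3 CPM. Again the lines did not overlap in either state, and the log2 difference was -0.95 ± 0.11 with vehicle (adjusted p = 3.32e-07) and -0.97 ± 0.11 with PTH (adjusted p = 2.20e-07).

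*Osmr* and *Lifr*, which encode the chains that join gp130 to bind oncostatin M and LIF, did not pass. With vehicle, *Osmr* averaged 42.7 ± 0.732 CPM in the WT and 42.0 ± 1.94 CPM in the Y428F libraries, a log2 difference of -0.02 with a 95% interval of -0.18 to 0.14. *Lifr* averaged 19.8 ± 3.56 and 20.2 ± 0.310 CPM, a log2 difference of 0.03 (-0.20 to 0.26). Their intervals do not reach the values of *Il6st* or *Il6ra*, although the difference between these genes was not itself tested. With PTH, the values were -0.15 (-0.32 to 0.01) for *Osmr* and -0.06 (-0.29 to 0.17) for *Lifr*.

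*Stat3* was at 81.8, 83.0 and 74.4 CPM in Y428F cells with vehicle and 72.9, 80.9 and 80.3 CPM with PTH, below all WT libraries of the same treatment, whose values are given above. The log2 difference was -0.47 ± 0.069 with vehicle (adjusted p = 1.02e-05) and -0.68 ± 0.069 with PTH (adjusted p = 6.02e-08). Each library held 1314 to 2161 counts of *Stat3*.

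Of the inhibitors, *Socs2* had a log2 difference of -1.09 ± 0.084 with vehicle (adjusted p = 1.07e-09) and, with PTH, -0.46 ± 0.087 (adjusted p = 0.000182). *Cish* was at 5.55, 7.17 and 7.03 CPM in WT cells with vehicle and 5.42, 4.92 and 6.87 CPM with PTH, above every Y428F library. Its log2 difference was -1.08 ± 0.17 with vehicle (adjusted p = 1.79e-05) and -1.45 ± 0.18 with PTH (adjusted p = 1.07e-06). With vehicle, *Socs1*, which blocks JAK kinases downstream of interferon receptors, was at 13.9, 15.6 and 13.0 CPM in the WT and 8.27, 9.91 and 9.77 CPM in the Y428F libraries. These libraries did not overlap, and *Socs1* was lower in Y428F cells by a log2 difference of -0.60 ± 0.12 (adjusted p = 0.000338). With PTH, *Socs1* was at 15.03, 13.5 and 11.2 CPM in WT and 12.0, 9.94 and 11.3 CPM in Y428F cells, the libraries overlapped, and the log2 difference of -0.26 ± 0.12 did not pass (adjusted p = 0.0939). It passed when WT PTH library 3, its lowest WT library, was left out (-0.36, adjusted p = 0.0200, in a range of 0.0200 to 0.403 over the alternatives). With vehicle, *Socs3* averaged 44.3 ± 6.06 CPM in the WT and 44.9 ± 0.296 CPM in the Y428F libraries, a log2 difference of 0.02 (95% interval -0.18 to 0.22). With PTH the *Socs3* log2 difference was 0.18 ± 0.10 and passed only with library totals in place of TMM scaling (0.24, adjusted p = 0.0462, in a range of 0.0462 to 0.859).

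**Figure D3:**
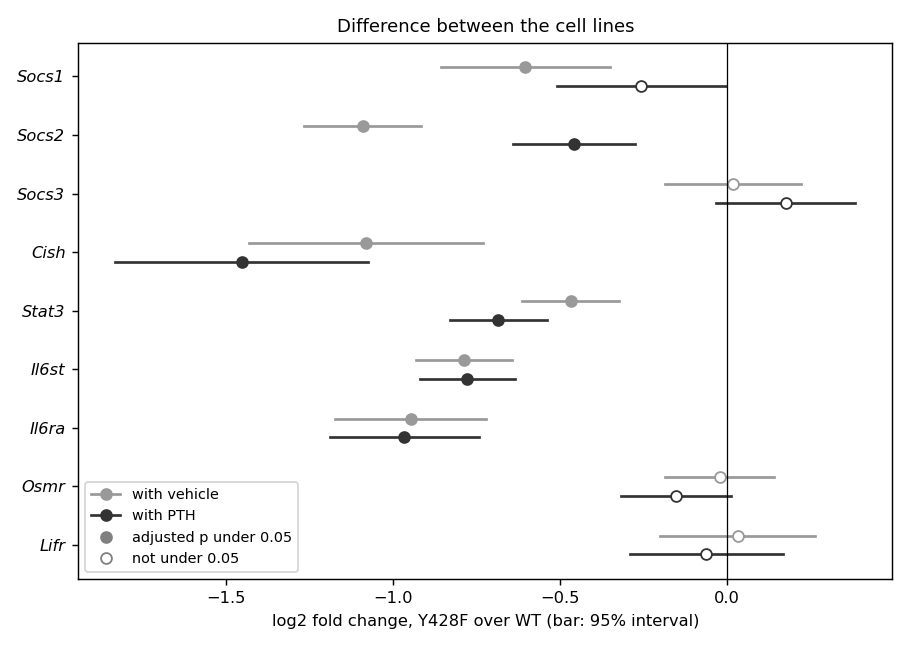
Log2 fold change of Y428F over WT cells (x axis) with vehicle (grey) and with PTH (black) for the 9 genes, with 95% intervals as bars and filled points where the adjusted p is under 0.05. *Socs2*, *Cish*, *Stat3*, *Il6st* and *Il6ra* lie below 0 in both states, *Socs1* is filled with vehicle only, and *Osmr*, *Lifr* and *Socs3* are open and near 0.

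The values of the 9 genes are set here beside the other genes of their chromosomes, as a description without a test. *Socs2* lies on chromosome 10 (GRCm39, 95219523 to 95253929, minus strand), where the median log2 difference with vehicle over 538 genes averaging 2 CPM or more was 0.25 and only 28.8% of them had a negative value. *Stat3* lies on chromosome 11 (100775924 to 100830450, minus strand; median 0.18 over 906 genes) and *Il6st* on chromosome 13 (112600604 to 112646620, plus strand; median 0.12 over 405 genes). These 3 genes were lower in Y428F cells, and the medians of their chromosomes were above 0. *Cish* lies on chromosome 9 (107173225 to 107179983, plus strand; median -0.23 over 612 genes, 75.8% of them negative) and *Il6ra* on chromosome 3 (89771366 to 89820719, minus strand; median -0.17 over 569 genes). For *Cish* and *Il6ra* the chromosome median and the gene had the same sign, and the part of the chromosome in the values of these genes was not tested. *Socs1* lies on chromosome 16 (10600104 to 10603875, minus strand), whose median over 342 genes was 0.05. *Socs3* is also on chromosome 11 (117856905 to 117860898, minus strand), and *Osmr* (6843053 to 6904450, minus strand) and *Lifr* (7120095 to 7226970, plus strand) are on chromosome 15, whose median was 0.20 over 461 genes. Stromal markers followed a like direction between the lines with vehicle, 10 of the 13 tested passing as lower and 1 as higher with a median of -0.73, and their part in the receptor and *Stat3* values was not tested. Marker sums of other cell types were small but also differed, from 1.42 CPM in WT to 8.91 CPM in Y428F cells for 4 endothelial markers (headed by *Cdh5*), from 1.69 to 4.49 CPM for 8 haematopoietic markers (headed by *Ptprc*) and from 27.0 to 6.69 CPM for 4 adipocyte markers (headed by *Fabp4*, with *Adipoq* and *Cfd* at 0), and their part was not tested either.

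In GENCODE vM39, all genes but *Osmr* share exon bases with genes on the opposite strand. Examples are 142 bases of *Stat3* with *Stat5a* and 1079 of 6419 exon bases of *Cish* with a long noncoding RNA. The authors used an earlier GENCODE release, and whether it holds the same overlaps was not checked. The strandedness of the counting is not given in the sources used here, so reads from these stretches cannot be told apart.

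The ligands of the family were scarce. *Il6*, *Lif* and *Osm*, named for their receptors after their values were seen, had 0 to 3 counts per library, 9 to 35 counts per library and 0 counts in every library, the last of which allows up to 3 counts in a library. Of 11 ligand genes listed, 7 had enough counts to test. With PTH, none passed in WT cells and *Clcf1*, a ligand of the CNTF receptor, rose in Y428F cells (log2 fold change 0.34 ± 0.080, adjusted p = 0.00657). The cardiotrophin *Ctf1* was lower in Y428F cells with vehicle (-0.75 ± 0.28, adjusted p = 0.0314), a call that was lost without WT or Y428F vehicle library 2 or 3 (-0.64 to -0.74, adjusted p of 0.0764 to 0.113). With PTH, *Cntf* passed as higher in Y428F cells, at a mean under the 2 CPM required for naming by size. It held only 0, 3.99 and 2 expected counts in the WT libraries and 9.78, 2.6 and 18 in the Y428F libraries, which overlapped. Of the 4 other receptor chains only 2 could be tested, and *Il11ra1*, the IL-11 receptor, was lower in Y428F cells by -1.22 ± 0.071 with vehicle and -1.23 ± 0.072 with PTH. Its near-identical copy *Il11ra2* had 0 counts in all libraries, so the assignment of reads between them is uncertain.

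With PTH in WT cells, 6.01% of all genes tested passed as lower and 7.42% as higher. Among 9 tested JAK and STAT genes other than *Stat3*, 4 fell and none rose there. These were *Stat2* (-0.50 ± 0.11), which acts in interferon signaling, the kinases *Jak3* (-0.39 ± 0.094) and *Tyk2* (-0.38 ± 0.095), and *Stat5a* (-0.23 ± 0.066). WT PTH library 3 stood apart here, with *Stat2* at 81.3 CPM against 121 and 124 CPM. Without it the *Stat2* log2 fold change was -0.32 and still passed. *Tyk2* lost its call without WT vehicle library 3 (-0.32, adjusted p = 0.0628; at most 0.0628 over its alternatives). *Stat5a* lost its call without WT vehicle library 2 or 3 or WT PTH library 1 or 3 (-0.17 to -0.21, adjusted p of 0.0634 to 0.153). In Y428F cells, 3 fell and none rose, against 5.78% and 6.61% of all genes tested. They were *Stat2* (-0.68 ± 0.13), *Stat5a* (-0.24 ± 0.067) and *Stat5b* (-0.21 ± 0.067). The similar sequences of *Stat5a* and *Stat5b* make the split of reads between them uncertain. *Stat2* kept its call when each library was left out. *Stat5a* lost it without Y428F vehicle library 1 or 3 or PTH library 3 (-0.20 to -0.25, adjusted p of 0.0524 to 0.105), and *Stat5b* without Y428F vehicle library 1 or 3 or any of the 3 PTH libraries (-0.17 to -0.23, adjusted p of 0.0548 to 0.173). Between the lines with vehicle, 22.7% of all genes tested passed as lower and 22.4% as higher. Of the 9 genes of this list, 6 were lower and 1 was higher, *Jak2*, which was named after its values were seen. The lower genes included *Stat2* (-2.38 ± 0.12), *Tyk2* (-0.69 ± 0.096) and *Stat5a* (-0.47 ± 0.066). With PTH, 5 were lower and none higher, against 23.0% and 22.8% of all genes tested. The shares over all genes given in this paragraph also apply to the lists below.

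Of 12 other regulators of the pathway, *Socs5* fell (-0.31 ± 0.082) and the phosphatase *Ptpn2*, which removes phosphate from JAKs and STATs, rose with PTH in WT cells (0.28 ± 0.077). In WT cells *Socs5* lost its call without vehicle library 2 (-0.22) or 3 (-0.26), with an adjusted p up to 0.113. *Ptpn2* did so without vehicle library 2 or 3 or PTH library 1 (0.21 to 0.27, adjusted p up to 0.117). *Ptpn2* was the only one to pass in Y428F cells, where it rose by 0.39 ± 0.077. Between the lines with vehicle, 4 were higher and 3 lower, and with PTH 4 were higher and 2 lower. The phosphatase *Ptpn6* (2.22 ± 0.32, and 3.06 without WT vehicle library 3, which was at 2.04 CPM against 0.688 and 0.512) and *Pias2* (0.83 ± 0.076) were higher in Y428F cells with vehicle, and *Pias3* (-0.67 ± 0.066), an inhibitor of STAT3, and *Pias1* (-0.44 ± 0.069) were lower.

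A list of 20 genes known from general knowledge as STAT3 targets, many of which other pathways also act on, moved in both directions. Of the 19 tested, 3 rose and 3 fell with PTH in WT cells and 5 rose and 2 fell in Y428F cells, with median log2 fold changes of 0.11 and 0.06 against -0.02 and -0.01 over all genes tested. The repressor *Bcl6* fell in both lines (-1.13 ± 0.15 in WT and -0.64 ± 0.15 in Y428F cells), and the kinase *Pim1* rose in both (0.58 ± 0.075 and 0.62 ± 0.074). *Bcl6* in Y428F cells lost its call without vehicle library 2 (-0.51, adjusted p = 0.0584, the highest over its alternatives). *Myc* also rose in both lines, by 0.64 ± 0.078 in WT and 0.25 in Y428F cells, as did *Mcl1*, a survival factor, by 0.19 and 0.37 ± 0.051. *Ccnd1* fell in both lines (-0.21 ± 0.061 in WT and -0.22 ± 0.061 in Y428F cells). The values of *Myc* in Y428F cells, of *Mcl1* in WT cells and of *Ccnd1* with PTH were added after they were seen, outside the rule for named genes. In WT cells *Vegfa*, a growth factor of blood vessels, fell (-0.43 ± 0.055). In Y428F cells *Junb*, an AP-1 subunit, rose by 0.55 ± 0.093. Between the lines, 7 were higher and 5 lower in Y428F cells with vehicle and 6 and 5 with PTH. With vehicle, the cell-cycle genes *Birc5* (1.37 ± 0.090) and *Ccnd1* (0.93 ± 0.061) and the survival gene *Bcl2l1* (0.79 ± 0.076) were higher, while *Cebpd* was lower (-0.64 ± 0.18).

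Of 18 other receptors that SOCS proteins restrain, cytokine receptors together with the receptors for insulin and IGF-1, 13 could be tested. With PTH in WT cells, the interferon receptor chain *Ifngr2* rose (0.27 ± 0.068) and the insulin receptor *Insr* fell (-0.23 ± 0.068). In Y428F cells, the growth hormone receptor *Ghr* rose (0.23 ± 0.059), and *Insr* (-0.25 ± 0.070) and the erythropoietin receptor *Epor* (-0.56 ± 0.18) fell. Several of these calls were lost when 1 library was left out. In WT cells *Ifngr2* lost its call without PTH library 1 (0.25, adjusted p = 0.0584, the highest over its alternatives), and *Insr* without vehicle library 2 or 3 or PTH library 1 or 3 (-0.19 to -0.24, adjusted p up to 0.0971). In Y428F cells *Insr* lost it without vehicle library 1 or 2 or PTH library 1 (-0.17 to -0.24, adjusted p up to 0.110), and *Epor* without vehicle library 1 or 3 or PTH library 1 or 2 (-0.38 to -0.59, adjusted p up to 0.263). Between the lines with vehicle, 4 were higher and 6 lower, the latter including *Epor* (-1.50 ± 0.15), *Ghr* (-0.68 ± 0.058), *Il4ra* (-0.65 ± 0.068) and *Ifnar2* (-0.57 ± 0.067). With PTH, 2 were higher and 7 lower.

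**Figure D4:**
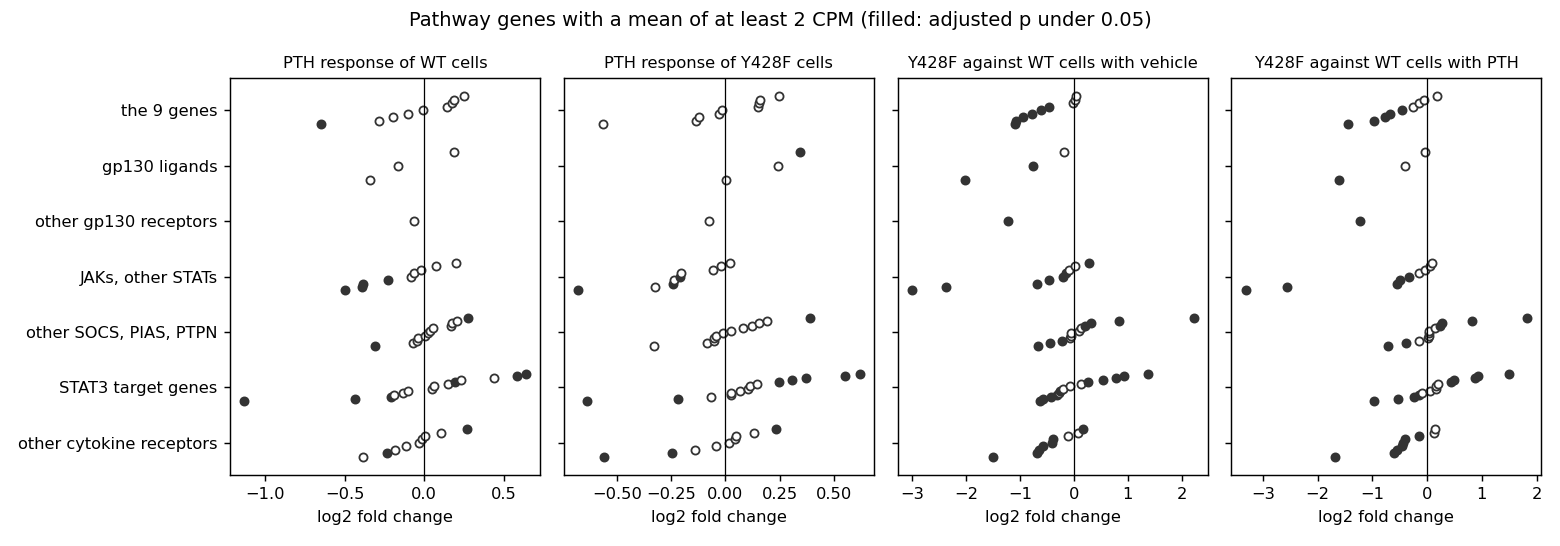
Log2 fold change (x axis, a separate range in each panel) of each tested gene averaging 2 CPM or more, for the 9 genes and the 6 lists (rows), in the 2 responses to PTH and the 2 comparisons of the lines. Filled points have an adjusted p under 0.05, and the 4 JAK and STAT genes filled for WT cells lie below 0, from -0.50 to -0.23.

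The pattern of *Socs2* over the 12 libraries, high in WT cells with vehicle, intermediate in WT cells with PTH and low in both Y428F groups, was compared with that of 11218 genes averaging 2 CPM or more. The 3 genes with the highest Pearson correlation of log2 CPM were *Podnl1* (0.964), *Kat8* (0.963) and *Tmub2* (0.963), given as a description over libraries that share their groups and scaling. Their amplitudes were smaller. *Kat8* averaged 18.8 ± 0.859, 14.8 ± 0.468, 13.4 ± 0.197 and 13.0 ± 0.984 CPM in the same order of groups, whereas *Socs2* averaged 30.9 ± 1.24, 19.7 ± 1.61, 14.5 ± 0.365 and 14.3 ± 0.527 CPM.

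**Figure D5:**
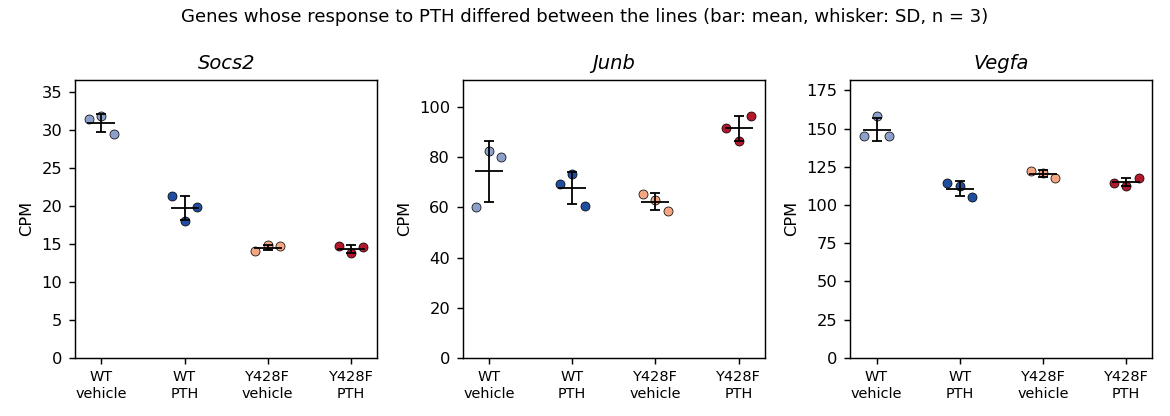
CPM (y axis, from 0) of *Socs2*, *Junb* and *Vegfa* in each library (points) of the 4 groups, with the group mean (bar) and SD (whisker). *Socs2* and *Vegfa* fell with PTH in WT cells, where *Vegfa* averaged 149 CPM with vehicle and 111 CPM with PTH, and *Junb* rose with PTH in Y428F cells, from 62.3 to 91.5 CPM.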

How the data were processed

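The authors mapped the reads with STAR 2.7.10b to GRCm39 and deposited RSEM expected counts per gene, which are not scaled for library size. How strand was treated is not given in the sources used here. The 12 libraries were grouped by their titles. Of 56980 genes, 31817 had 0 counts in all libraries. Expected counts were rounded before the fit in edgeR 4.0.16 under R 4.3.3 (quasi-likelihood test, TMM scaling, all 12 libraries in 4 groups without a block). Genes summing to 10 or more counts over all libraries (17691) were tested, with Benjamini-Hochberg adjustment over them, and a gene passed at an adjusted p under 0.05. CPM are TMM-scaled. Standard errors and 95% intervals come from the same fit. Positions, lengths and exon overlaps came from GENCODE vM39, in which 56236 identifiers matched and 744 did not. The authors used the basic annotation of an earlier GENCODE release. Promoter windows came from RefSeq (GRCm38.p6).

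Tested on simulated data with 100 genes changed by 2-fold and 100 by 1.25-fold in each comparison, the fit recovered 95% and 40% for PTH in WT cells (17278 genes), 99% and 50% in Y428F cells (17304 genes), 93% and 40% between the lines with vehicle (17311 genes), 97% and 46% with PTH (17311 genes), and 88% and 13% for the difference in response (17318 genes). All 12 replicate pairs differed beyond sampling noise (chi-square per degree of freedom 2.87 to 14.2).

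The 9 genes and the gene lists were chosen with earlier results of these data known. The genes named from a list in a comparison were the up to 4 genes of largest absolute log2 fold change that passed and averaged 2 CPM or more. Genes named outside that rule are stated as such. Some genes that the rule would name are not reported here. Marker lists for endothelial cells, with at most 9.94 CPM in a library, and for adipocytes, with at most 33.9 CPM, were also summed. Alternatives were DESeq2 1.42.0 (Wald test), its size factors, library totals alone, no filter, at least 10 counts in every library, unrounded counts, only the 6 libraries compared, the replicate number as a block, an adjusted p under 0.01 with a log2 fold change over 0.3, and each library left out in turn.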

Additional observations from a re-analysis of the deposited data

Results flagged for a closer look

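*Socs2* and 2 genes of the STAT3 target list differed between the lines in their response to PTH by the test of the difference itself, in edgeR's quasi-likelihood fit of all 12 libraries. The log2 difference (Y428F response minus WT response) was 0.63 for *Socs2*, with 3 of 3 WT libraries with PTH below all WT libraries with vehicle and overlapping libraries in Y428F cells. It was 0.69 ± 0.13 (SE) for *Junb* (adjusted p = 0.0215), which was at 60.3, 82.6 and 80.3 CPM in WT cells with vehicle, 69.3, 73.4 and 60.7 with PTH, 65.2, 63.1 and 58.6 in Y428F cells with vehicle and 91.6, 86.5 and 96.5 with PTH. The WT libraries of *Junb* overlapped and the Y428F libraries did not, and its adjusted p ranged from 6.04e-10 to 0.0794 over the alternatives. *Vegfa* had a difference of 0.37 ± 0.078 (adjusted p = 0.0372), with an adjusted p of 0.00143 to 0.137 over the alternatives. It was at 145, 158 and 145 CPM in WT cells with vehicle, 114, 113 and 105 with PTH, 122, 121 and 118 in Y428F cells with vehicle and 115, 113 and 118 with PTH. When each library was left out in turn, the difference ranged from 0.60 to 0.81 for *Junb* and from 0.32 to 0.40 for *Vegfa*. The call of *Junb* was lost without WT vehicle library 2 or 3, WT PTH library 1, Y428F vehicle library 2 or 3 or Y428F PTH library 3, and that of *Vegfa* without any single library other than WT vehicle library 1 and Y428F PTH library 2.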

How the results depend on the processing

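Of the results for the 9 genes that passed, 193 of 200 alternative values kept direction and call and 7 lost the call, all 7 of them for the *Socs2* difference in response. Of those that did not pass, 483 of 520 stayed so, 14 passed and 23 turned sign. Of the results for named genes of the lists, 884 of 953 alternative values kept the call and 69 lost it. The 6 and 5 genes lower in Y428F cells kept their calls in every alternative run. With the strict limits, 1073 genes were called with PTH in WT cells, 942 in Y428F cells and 22 for the difference in response, where none of the 9 genes passed (0, *Socs2* 0.63). The difference had 123 genes with DESeq2 and 216 with no filter on low counts. In WT cells with PTH, 2 of the 9 passed with library totals, where 956 genes were higher and 1608 lower of 17691 tested. With no filter 3 of the 9 passed, where 1418 genes were higher and 1195 lower of 25074. With at least 10 counts in every library 2 of the 9 passed, where 1363 genes were higher and 1294 lower of 11543. In Y428F cells 1 passed with library totals (888 genes higher and 1445 lower of 17691). With at least 10 counts in every library 1 passed (1245 genes higher and 1210 lower of 11543). Scaling by library totals also moved the split of all genes called with PTH, from 1312 higher and 1063 lower to 956 and 1608 in WT cells, and from 1170 and 1022 to 888 and 1445 in Y428F cells. For these changes the cause was not tested.

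No pairing of the libraries by replicate number was seen. With deviations taken from the mean of only 3 libraries per group, a real pairing could be missed. Correlations of deviations between same-numbered libraries ranged from -0.146 to 0.242 (median -0.0188, 18 pairs), and 0 of 12 libraries correlated best with their own number in every other group. With the number as a replicate block, 3 of the 9 genes passed with PTH in WT cells (*Socs2*, *Socs3* at an adjusted p of 0.0420 and *Stat3* at 0.0490). Of all 17691 genes tested, 1345 were higher and 1085 lower there. With the same block *Stat5b* lost its call with PTH in Y428F cells (-0.21, adjusted p = 0.0506). *Ptpn2* with PTH in WT cells lost its call with library totals (0.22) and with only the 6 libraries compared (0.28), as did *Stat5a* in WT cells (-0.22) and *Epor* in Y428F cells (-0.55) with only the 6 libraries.

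With each library left out in turn, 1 to 3 of the 9 genes passed in WT cells with PTH, beside 1591 to 2508 of the 17449 to 17539 genes tested. In Y428F cells 1435 to 1817 genes were called with PTH, the lowest without Y428F vehicle library 1. The difference in response had 0 to 1 of the 9 genes and 24 to 89 genes in all, and *Socs2* ranged from 0.58 to 0.70. Values near 0 that turned sign ranged from -0.20 to 0.0093 for *Socs1*, from -0.0820 to 0.0421 for *Osmr* with PTH in WT cells, from -0.0329 to 0.0153 for *Socs2* and from -0.0772 to 0.0173 for *Stat3* with PTH in Y428F cells. Between the lines they ranged with vehicle from -0.0902 to 0.10 for *Socs3* and from -0.11 to 0.13 for *Lifr*, and with PTH from -0.14 to 0.0105 for *Lifr*. For the difference in response they ranged from -0.0480 to 0.0684 for *Il6st*, -0.12 to 0.10 for *Il6ra* and -0.21 to 0.0365 for *Lifr*. *Osmr* turned to 0.0014 with PTH in WT cells with only the 6 libraries compared, and with library totals to 0.0345 between the lines with vehicle, as did *Lifr* with PTH (0.0054).

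Depth limited *Cish* most, at 35 to 131 counts per library.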
